A study of Mus musculus with 5 samples.

Results

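The Bcl-2 family of cell death regulators was followed in RNA sequencing of mouse spinal cord with and without the long non-coding RNA Lhx1os. It was represented by 10 genes of the 55471 in the count table, namely the anti-apoptotic genes Bcl2l1, Bcl2, Bcl2l2 and Mcl1, the effector genes Bax and Bak1, and the BH3-only genes Bad, Bbc3, Bcl2l11 and Bid. The set was chosen from the KO against WT contrast of these same libraries: Bcl2l1 had rank 9 by p-value among 16052 genes tested, and the other 9 genes came in by family name. Differences between the genotypes are therefore given for these 10 genes as a description and not as a test. All 10 passed the filter on low counts.

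Resting Lhx1os -/- mice (KO) were compared with resting Lhx1os +/+ mice (WT), all of them male, 3 months old and of the C57BL/6J strain, with 2 KO and 3 WT libraries of polyadenylated RNA from spinal cord. The KO allele was made with Cas9 and a guide against the second exon of Lhx1os, into which a short synthetic poly(A) signal with MAZ polymerase-destabilising repeats was inserted, so that the locus was interrupted and not removed. The labels name no litter, founder or day, so a p-value here reflects how far these 5 libraries scatter, and part of that scatter may be technical. Totals over genes were 16384033 and 15973063 counts in the KO libraries, against 16086041 to 19437533 in the WT libraries. Lhx1os had 13 and 11 counts in the KO libraries, against 56, 66 and 51 in the WT libraries. Defining markers of neurons, motor neurons and glia were present in the libraries, and no marker of the 11 cell type lists was at 0.

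The family governs apoptosis through mitochondria. Bax and Bak1 encode proteins that permeabilise the outer mitochondrial membrane, which releases cytochrome c and sets off the caspases. Anti-apoptotic members such as Bcl-xL, the product of Bcl2l1, hold these effectors in check, and BH3-only proteins bind either side through a short helix called the BH3 motif. Bcl-xL is known to support the survival of neurons, and loss of Bax spares motor neurons from programmed death during development.

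The BH3 motif is what all 10 genes share in sequence, and its coding stretch is shown for each of them so that the motif can be compared between the classes. Membership of the family rests on such motifs, so a match in every gene is no finding. The stretch was located by a leucine or methionine codon, any 3 codons, a codon for glycine, alanine or serine, one for aspartate and one for aspartate, glutamate or glycine. The longest coding transcript of each gene in GENCODE M21 (GRCm38) held 1 such match, within a single exon. Capitals mark the 18 core bases from the leucine or methionine codon to the first aspartate codon, and each sequence reads 5′ to 3′ on the coding strand. The anti-apoptotic genes had the following 42 bases.
Bcl2l1: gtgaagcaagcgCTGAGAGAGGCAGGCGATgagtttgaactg
Bcl2: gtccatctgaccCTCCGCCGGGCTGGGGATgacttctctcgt
Bcl2l2: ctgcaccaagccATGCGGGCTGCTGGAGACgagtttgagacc
Mcl1: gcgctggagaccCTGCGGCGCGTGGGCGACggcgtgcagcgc
These lie at chr2:152829694-152829735 on the minus strand for Bcl2l1, chr1:106712572-106712613 on the minus strand for Bcl2, chr14:54884505-54884546 on the plus strand for Bcl2l2 and chr3:95659424-95659465 on the plus strand for Mcl1. The effector genes had these sequences.
Bax: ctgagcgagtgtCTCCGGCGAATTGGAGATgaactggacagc
Bak1: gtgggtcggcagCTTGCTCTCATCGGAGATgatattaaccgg
They lie on the minus strand, at chr7:45465994-45466035 for Bax and chr17:27022528-27022569 for Bak1. The BH3-only genes had these.
Bad: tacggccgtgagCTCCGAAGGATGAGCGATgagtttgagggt
Bbc3: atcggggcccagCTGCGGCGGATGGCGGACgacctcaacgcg
Bcl2l11: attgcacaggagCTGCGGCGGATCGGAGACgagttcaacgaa
Bid: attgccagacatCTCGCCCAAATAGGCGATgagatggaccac
They lie at chr19:6950780-6950821 on the plus strand for Bad, chr7:16313761-16313802 on the plus strand for Bbc3, chr2:128147138-128147179 on the plus strand for Bcl2l11 and chr6:120897286-120897327 on the minus strand for Bid. Of the 18 core bases of Bcl2l1, Bcl2 had 11 in the same places, Bcl2l2, Mcl1, Bad and Bid had 10, Bcl2l11 had 9, Bax and Bbc3 had 8 and Bak1 had 7. Bcl2l2 was the gene with a methionine codon in place of leucine at the start of the core, and Bad and Bbc3 were those with a serine and an alanine codon before the aspartate.

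Per exon length, anti-apoptotic messages made up most of the summed RNA of the 10 listed members in this tissue. Levels are given as RPKM, counts divided by the union length of a gene's exons and by the library size scaled with TMM factors. Averaged over the 5 libraries, Bcl2l2, the gene of Bcl-w, stood highest at 31.5 RPKM, Bcl2l1 followed at 25.2 RPKM and Mcl1, the gene of a short-lived survival protein, at 24.3 RPKM. Bax came next at 14.5 RPKM, then Bad at 7.41 RPKM, Bak1 at 6.13 RPKM, Bcl2 at 3.15 RPKM, Bid at 2.73 RPKM, Bbc3 (the gene of PUMA) at 1.01 RPKM and Bcl2l11 (the gene of BIM) at 0.786 RPKM. The founding member Bcl2 thus ranked 7 of 10, and its share of the summed RPKM of these 10 was 2.69%, against 21.5% for Bcl2l1. Outside the 10, Bnip3 at 48.0 RPKM and Bnip3l at 43.7 RPKM, counted with the wider family below, stood above each of them. Among the 10, neighbours in order whose ranges over the libraries overlapped were Bcl2l1 and Mcl1, Bcl2 and Bid, and Bbc3 and Bcl2l11. The other 6 neighbouring pairs kept their order in all 5 libraries. With the longest transcript as length, 3 pairs changed places: Bcl2l1 at 45.0 RPKM then stood above Bcl2l2 at 36.9 RPKM, Bid and Bcl2 both came to 4.01 RPKM, Bid a trace higher, and Bcl2l11 at 1.25 RPKM stood above Bbc3 at 1.19 RPKM.

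**Figure D1:**
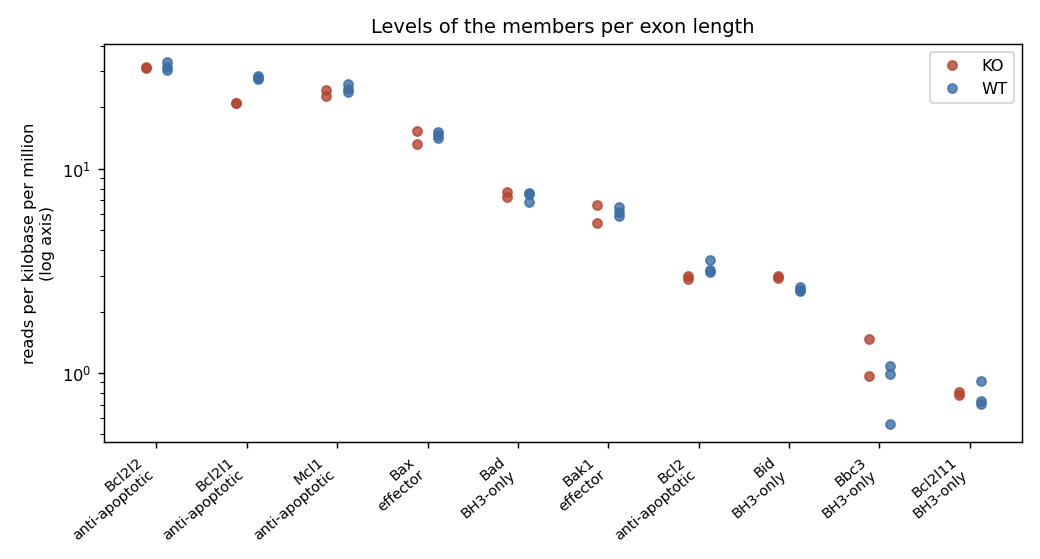
Levels of the 10 members on a log axis, in RPKM, with each KO library (left) and each WT library (right) as a point. Bcl2l2, Bcl2l1 and Mcl1 sit at the top between 21.0 and 33.3, and Bcl2l11 at the bottom between 0.704 and 0.912.

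Bcl2l1 lay lower in KO than in WT spinal cord, by more than the spread between libraries. The gene (ENSMUSG00000007659) occupies chr2:152780668-152831728 on the minus strand in GRCm38, with 9 annotated transcripts, and encodes Bcl-xL and by alternative splicing the shorter pro-apoptotic Bcl-xS. It had 1572 and 1549 counts in the KO libraries, against 2202, 2510 and 2042 in the WT libraries. As CPM, counts scaled to library size with TMM factors, these were 96.4 and 96.8 CPM in KO, against 131, 128 and 126 CPM in WT. Every KO library was thus below every WT library, and the libraries of each genotype lay close together, with a pooled SD of 0.0244 on the log2 scale, the smallest of the 10 members. The means were 96.6 ± 0.292 CPM in KO (SD, n = 2) and 128 ± 2.66 CPM in WT (SD, n = 3), a KO mean 24.7% lower. On the log2 scale the fitted difference of KO from WT was -0.41 (SE 0.06), and 4.06% of the 16052 genes had a value as low or lower. Leaving out any library kept it between -0.43 and -0.39. Counting error alone was 2.0% to 2.54% per library for this gene, more than the spread of the KO libraries. A choice by p-value favours a gene with a small spread, so the close agreement is no further support. Gene counts do not tell Bcl-xL from Bcl-xS transcripts, and in bulk tissue fewer cells of a type and less RNA per cell cannot be told apart.

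The order of Bcl2l1 and Mcl1 in KO libraries depended on the length used. By union exon length Bcl2l1 was at 21.0 and 21.1 RPKM in KO, against 28.6, 28.0 and 27.4 RPKM in WT, and Mcl1 at 22.7 and 24.4 RPKM in KO, against 24.5, 23.7 and 26.1 RPKM in WT, so that Bcl2l1 was below Mcl1 in both KO libraries and above it in the WT libraries. On that length Bcl2l1 accounted for 27.0% and 26.5% of the summed RPKM of the 4 anti-apoptotic genes in KO libraries, against 31.9%, 32.6% and 31.1% in WT libraries. By the longest transcript Bcl2l1 stood above Mcl1 in all 5 libraries, with 37.5 and 37.7 RPKM in KO, against 51.0, 49.9 and 49.0 RPKM in WT, where Mcl1 did not exceed 26.1 RPKM in any library.

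The other anti-apoptotic genes had smaller differences. Bcl2 (ENSMUSG00000057329), on chromosome 1, had 26.4 and 27.3 CPM in KO, against 28.6, 32.6 and 29.2 CPM in WT. The KO libraries were again the lowest, here by a narrow margin, and the log2 fold change was -0.17 (SE 0.09). Mcl1, whose protein is turned over quickly, had 77.6 and 83.5 CPM in KO, against 83.7, 81.0 and 89.1 CPM in WT, with a log2 fold change of -0.07 (SE 0.07). Its groups overlapped. Bcl2l2 had 140.0 and 139 CPM in KO, against 149, 136 and 141 CPM in WT, with overlapping groups and a log2 fold change of -0.02 (SE 0.06) that took either sign when 1 library was left out. Exons of Bcl2l2 share 594 bases with the same-strand gene Gm20521, and those of Bax 192 bases with Gm45808. Both partners had 0 counts in every library, and reads in shared exons can go uncounted.

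The effector genes differed by less than their spread. Bax had 24.0 and 20.9 CPM in KO, against 22.2, 24.0 and 23.0 CPM in WT, with a log2 fold change of -0.04 (SE 0.10). Bak1 had 16.1 and 13.1 CPM in KO, against 15.6, 14.9 and 14.1 CPM in WT, with a log2 fold change of -0.02 (SE 0.12). For both genes KO replicate 1 was the highest library and KO replicate 2 the lowest. The sign accordingly turned with the KO library kept: without KO replicate 1 the values were -0.14 for Bax and -0.18 for Bak1, and without KO replicate 2 they were 0.06 and 0.11.

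**Figure D2:**
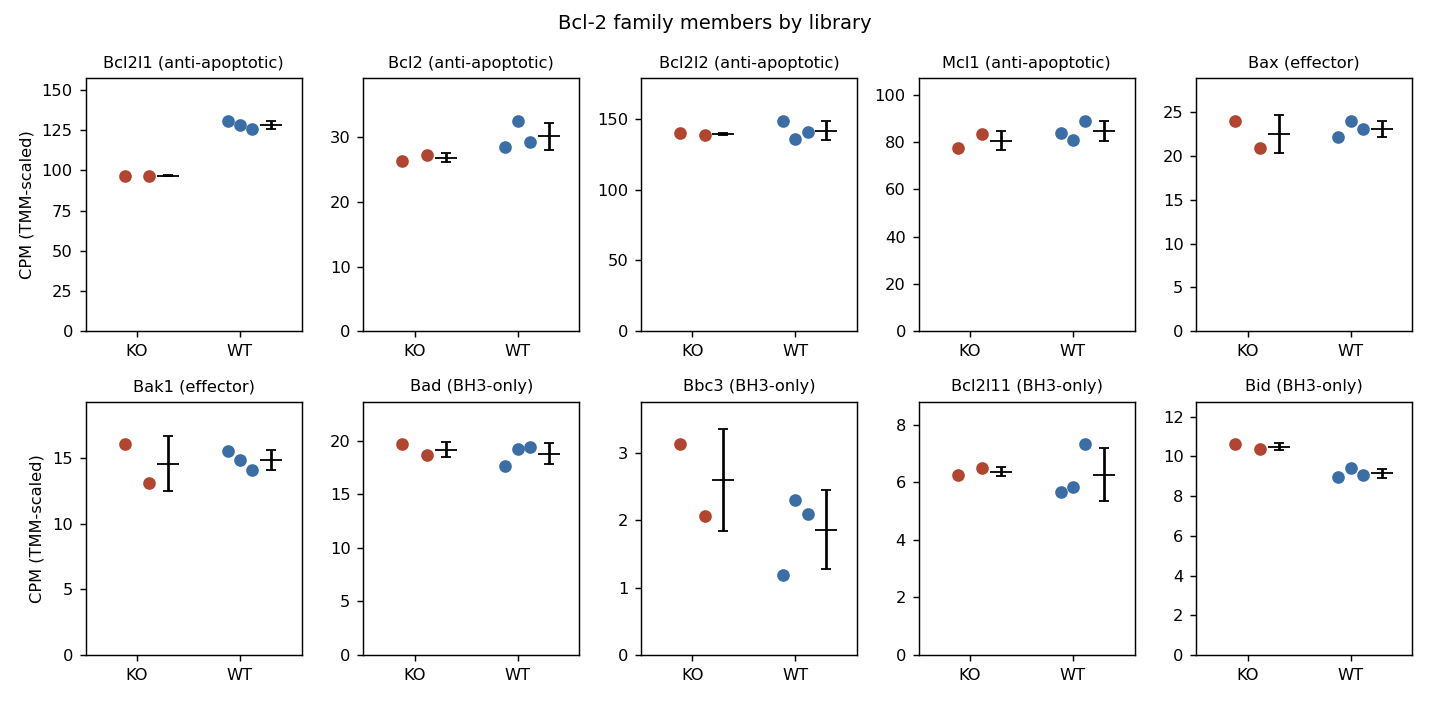
Each panel plots 1 member in CPM by library, with KO left and WT right, and a bar for the mean ± SD. Bcl2l1 at 96.4 and 96.8 in KO lies clear of 126 to 131 in WT, Bcl2 is lower and Bid higher in both KO libraries, and the groups of the other 7 overlap.

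The 4 BH3-only members all had positive log2 fold changes, with Bid the one whose groups did not overlap. Outside the listed members, the BH3-only genes Pmaip1 and Hrk had -0.61 (SE 0.25) and -0.17 (SE 0.22), and Bmf had 0.14 (SE 0.19). Bid, which links death receptors to mitochondria when cut by caspase-8, had 10.6 and 10.4 CPM in KO, against 8.98, 9.40 and 9.05 CPM in WT. Its log2 fold change was 0.20 (SE 0.12) and stayed between 0.18 and 0.22 with any library left out. Exons of Bid share 628 of their 3550 bases with Bcl2l13 on the other strand, a gene of 774 to 923 counts per library. With no strand setting given for the counting, it cannot be told how reads in these shared bases were assigned. Bbc3, a target of p53, had 3.13 and 2.06 CPM in KO, against 1.19, 2.30 and 2.09 CPM in WT. That is 51 and 33 counts in KO, against 20, 45 and 34 in WT, where counting error alone reaches 22.4% in a library. The groups overlapped, the log2 fold change was 0.47 (SE 0.33), and it came to 0.14 when KO replicate 1 was left out and 0.74 when KO replicate 2 was. Without WT replicate 1, the lowest library, it was 0.24.

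Bad, whose protein is held inactive by phosphorylation under growth factor signals, had 19.7 and 18.7 CPM in KO, against 17.7, 19.3 and 19.5 CPM in WT (log2 fold change 0.03, SE 0.10). Exons of Bad share 524 bases with Gpr137 on the other strand, which had 1546 to 1983 counts per library, several times those of Bad. Bcl2l11 had 6.26 and 6.50 CPM in KO, against 5.65, 5.82 and 7.33 CPM in WT (log2 fold change 0.03, SE 0.17). Both genes had overlapping groups.

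Set side by side, the 4 anti-apoptotic genes all had negative values and the 6 pro-apoptotic genes were divided. The median log2 fold change was -0.12 for the anti-apoptotic genes, -0.03 for the effectors and 0.11 for the BH3-only genes, against 0.0044 over all 16052 genes. The mean was -0.17 for the 4 anti-apoptotic and 0.11 for the 6 pro-apoptotic members, a difference of -0.28. These means cover the listed members only. Pro-apoptotic genes outside them took both signs, with Pmaip1 (-0.61) and Hrk (-0.17) negative and Bmf (0.14) and Bok (0.08) positive. In the wider family list, which also holds other roles, 6 of 10 tested genes were negative and 4 positive. Bnip3l (-0.14) and Bnip3 (-0.01) were among the negative ones. Bcl2l1 and Bbc3 weighed most in the difference. Leaving both out, a choice made after seeing the data, gave -0.13, and the value was -0.16 when KO replicate 1 was left out and -0.39 when KO replicate 2 was. Library by library, the mean log2 RPKM of the anti-apoptotic genes exceeded that of the pro-apoptotic genes by 1.95 and 2.18 in KO, against 2.49, 2.28 and 2.28 in WT, so the groups did not overlap. The pooled SD of this quantity within groups was 0.136. Bcl2l1, picked from this same contrast, enters it, so nothing is read from the separation. Without Bcl2l1 the same quantity was 1.77 and 2.01 in KO, against 2.22, 2.02 and 2.03 in WT, where KO replicate 2 lay just below the nearest WT library. As a ratio of summed RPKM, anti-apoptotic over pro-apoptotic messages stood at 2.24 and 2.59 in KO, against 2.86, 2.57 and 2.71 in WT, and these overlapped. The ratio of Bcl2l1 to Bax was 1.38 and 1.59 in KO, against 2.03, 1.84 and 1.88 in WT. That difference rests on Bcl2l1, since the groups of Bax overlapped.

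**Figure D3:**
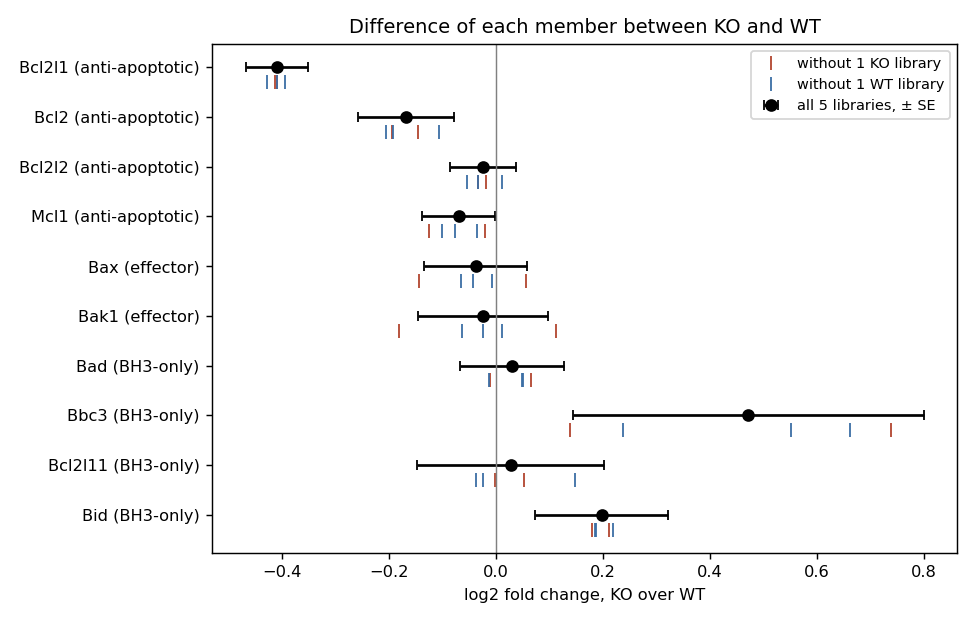
The log2 fold change of each member, KO over WT, is drawn as a point with its standard error, and the ticks under it are the values with 1 library left out. Bcl2l1 stays between -0.43 and -0.39, whereas Bbc3 runs from 0.14 to 0.74 and Bax and Bak1 cross 0.

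Over all genes 3 of 16052 (0.0187%) had an adjusted p under 0.05 in edgeR's quasi-likelihood test, and 0 of the 10 members were among them. DESeq2 called 40 genes (0.249%), of which 1 was a member, Bcl2l1. It was also the only member with an unadjusted p under 0.05 in edgeR, beside 1215 of all genes tested (7.57%). Both KO libraries lay below all WT libraries for 2 members, Bcl2l1 and Bcl2, and for 12% of all genes tested. They lay above for 1 member, Bid, and for 12.9% of all genes. Since this contrast chose the set, nothing is read from these counts.

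Several of the marker lists of cell types differed in value beside the family. Of the 6 markers of oligodendrocyte precursors 5 had negative log2 fold changes (median -0.22). Their summed level was 194 to 211 CPM in KO, against 243 to 257 CPM in WT, which did not overlap. The sums of every other marker list overlapped between the genotypes. Singly, 3 of the 6 precursor markers had every KO library below every WT library, beside 12% of all genes tested. For sums of several genes no such share was worked out. The astrocyte and microglia lists also had 5 of 6 markers negative, with medians of -0.12 and -0.07. All 7 meningeal fibroblast markers were negative (median -0.44), and their sum was 209.7 to 223 CPM in KO, within the 176 to 368 CPM of WT. All 5 Schwann cell markers were negative (median -0.07), with sums of 335 to 479 CPM in KO, within the 275 to 556 CPM of WT. Of the 6 motor neuron markers 5 were positive (median 0.23), with overlapping sums of 230.0 to 330.5 CPM in KO, against 191 to 304 CPM in WT. The 5 skeletal muscle markers, all positive, summed to 14.7 CPM in KO replicate 1, the library with the most Bbc3, and to 4.50 CPM in KO replicate 2, against 2.28 to 5.24 CPM in WT. The part of these cell types in the values of the family was not tested. Erythroid markers, from a lineage that depends on Bcl-xL, overlapped between the genotypes at 238 to 336 CPM in KO, against 231 to 347 CPM in WT.

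The 5 genes whose pattern over the 5 libraries was most like that of Bcl2l1 were Nt5c3, F3, Tns3, Prdm15 and Gm13403. Likeness was the root mean square difference of log2 CPM centred on each gene's mean, among 14866 genes with a mean of at least 1 CPM. It was 0.0235 for Nt5c3, a pyrimidine nucleotidase gene, 0.0315 for F3, the gene of tissue factor, 0.0339 for Tns3, a focal adhesion protein gene, 0.0355 for Prdm15, a zinc finger protein gene, and 0.0363 for Gm13403. The median over the genes compared was 0.231. Nt5c3 had 31.2 and 30.3 CPM in KO, against 42.7, 40.2 and 40.4 CPM in WT. Only 5 libraries of 2 genotypes enter this measure, and Gm13403 was replaced with a smaller prior count.

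The rest of the apoptosis pathway was described from 8 lists that hold 105 symbols, of which 96 genes were tested. None passed the edgeR threshold over all genes, 14 had an unadjusted p under 0.05, beside 7.57% of all genes, and DESeq2 called 2, Cdkn1a and Jun. Log2 fold changes were negative for 51 genes and positive for 45, and their median was -0.0041. KO libraries lay below all WT libraries for 20 of the 96 genes and above for 9, beside the 12% and 12.9% of all genes given above.

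Other members of the family included 10 tested genes, 6 negative and 4 positive, with a median log2 fold change of -0.06. Pmaip1, the gene of the BH3-only protein NOXA, had 1.98 ± 0.411 CPM in KO (SD, n = 2) and 3.03 ± 0.269 CPM in WT (SD, n = 3), a log2 fold change of -0.61 (SE 0.25). Bnip3l, a receptor for mitophagy, had -0.14 (SE 0.06), and its paralogue Bnip3, at 48.0 RPKM the most abundant gene of the list, had -0.01 (SE 0.08). Neither Pmaip1 nor Bnip3l passed (adjusted p = 0.644 and 0.660, edgeR).

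Downstream of the mitochondrion the 15 genes of the apoptosome, the caspases and the released factors were 8 higher in KO by value and 7 lower. Their median log2 fold change was 0.01, and 0 of them had an unadjusted p under 0.05, beside 7.57% of all genes. Diablo, whose product counters the inhibitors of apoptosis, had -0.22 (SE 0.12), and the nuclease gene Endog had 0.23 (SE 0.14). Dffa, the gene of the inhibitor of the caspase-activated DNase, was the most abundant at 34.0 RPKM and had 0.15 (SE 0.11). Diablo and Endog share exon bases with genes on the other strand, and Diablo also shares 1193 with the same-strand gene Gm49027. Among 8 inhibitors of apoptosis Xiap, which blocks caspases directly, had 89.9 ± 3.43 CPM in KO and 101 ± 3.64 CPM in WT (SD, n = 2 and 3; log2 fold change -0.17, SE 0.06; adjusted p = 0.626, edgeR). Naip6 had 0.70 (SE 0.30) at a mean of 2.10 CPM in KO and 1.29 CPM in WT, and belongs to a family of near-identical copies among which reads can be divided.

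**Figure D4:**
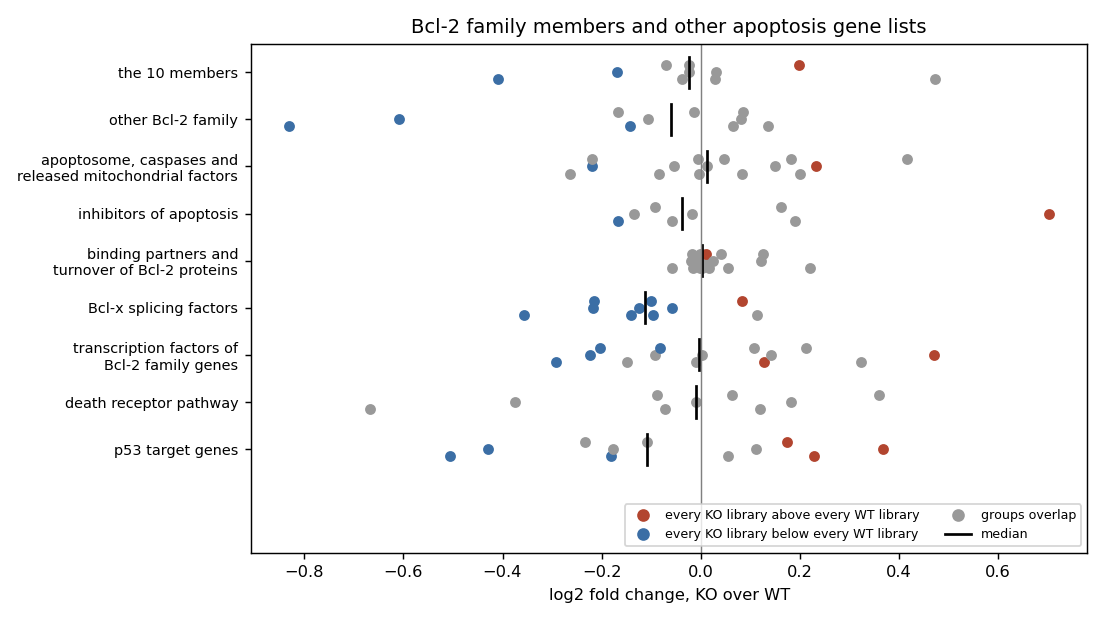
Each point is 1 tested gene, of the 10 members in the top row and of the 8 lists under it, at its log2 fold change of KO over WT, with the list's median as a vertical line, red where every KO library was above every WT library, blue where every KO library was below and grey where they overlapped. The Bcl-x splicing factors have 8 of 10 points in blue and a median of -0.11, and the binding partners cluster around 0.

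Among regulators of the family the binding partners and turnover factors varied least. Their 19 genes ran from -0.06 to 0.22, with a median of 0.0030, and Vdac1, a channel of the outer mitochondrial membrane and the most abundant at 139 RPKM, had 365 ± 11.6 CPM in KO and 365 ± 20.4 CPM in WT (SD, n = 2 and 3). Itpr3, an inositol trisphosphate receptor gene, had 0.22 (SE 0.11) and Fkbp8, whose product anchors Bcl-2 at mitochondria, had 0.12 (SE 0.07). The factors known to direct splicing of Bcl-x had 8 negative and 2 positive values, with a median of -0.11. KO libraries lay below all WT libraries for 8 of these 10, and 4 had an unadjusted p under 0.05, beside 12% and 7.57% of all genes tested. Hnrnph1 had 202 and 218 CPM in KO, against 245, 237 and 251 CPM in WT (log2 fold change -0.22, SE 0.06; adjusted p = 0.476, edgeR). Hnrnpf, its close relative, had 33.8 and 32.2 CPM in KO, against 37.7, 39.0 and 38.3 CPM in WT (-0.22, SE 0.07; adjusted p = 0.586, edgeR), and Hnrnpk, the most abundant of the list at 51.8 RPKM, had -0.10 (SE 0.05).

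Of the transcription factors that act on family genes 7 had positive and 7 negative values. Jun, a component of AP-1, had 49.4 and 45.3 CPM in KO, against 33.1, 37.6 and 31.5 CPM in WT, or 0.47 on the log2 scale (SE 0.09; edgeR adjusted p = 0.192), which passed in DESeq2 (adjusted p = 0.0291). Creb1 had 40.1 and 48.9 CPM in KO, against 56.3, 50.2 and 57.1 CPM in WT (-0.29, SE 0.10; adjusted p = 0.560, edgeR). In the death receptor list 0 of 9 genes had an unadjusted p under 0.05, beside 7.57% of all genes, with Fadd at 0.36 (SE 0.21), Fas at -0.38 (SE 0.24) and the most abundant, Tnfrsf21, at 0.12 (SE 0.08). The p53 targets were mixed, 6 negative and 5 positive. Cdkn1a, the gene of p21, had 31.5 and 31.1 CPM in KO, against 43.6, 48.4 and 41.2 CPM in WT (-0.51, SE 0.09; adjusted p = 0.136, edgeR; 0.00772, DESeq2). Sesn2, a stress-induced regulator of mTOR signalling, had 23.1 and 23.6 CPM in KO, against 16.8, 19.3 and 18.2 CPM in WT (0.37, SE 0.10; adjusted p = 0.430, edgeR), and Phlda3, the most abundant at 36.4 RPKM, had 0.17 (SE 0.06).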

How the data were processed

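The authors deposited 1 table of whole-number, unnormalised gene counts for the 5 libraries. Per the labels' protocols libraries were made with a stranded TruSeq mRNA kit. Per the submitters' processing notes cutadapt, Trimmomatic, STAR 2.5.2b, HTSeq and GRCm38 were used; no annotation release or strand setting is given in the sources used here. Groups followed titles. GENCODE M21 (GRCm38) supplied symbols, exons and coding sequences for 55144 identifiers; Ddit3 matched more than 1 and was left out.

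Genes were filtered with edgeR's filterByExpr (minimum count 10, total 15) and KO was compared with WT by edgeR 4.0.16 (R 4.3.3), quasi-likelihood F test, TMM factors, no covariates and Benjamini-Hochberg adjustment over all genes. The common biological coefficient of variation was 7.48%. Tested on simulated data, it recovered most known changes, larger ones more often, with a false share above the nominal rate. Alternatives used other size factors, filters, robust dispersion, DESeq2 1.42.0, limma-voom (limma 3.58.1), the replicate number as a block and each library left out. The members and lists were chosen with earlier results of these data known. Named list genes are the 2 of smallest p and the most abundant of each list. Libraries of a group differed beyond sampling noise (chi-square per degree of freedom 4.01 to 7.47). Pairs of libraries across the genotypes covered a similar range, 4.23 to 7.72.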

Additional observations from a re-analysis of the deposited data

How the results depend on the processing

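The log2 fold change of Bcl2l1 stayed between -0.43 and -0.39 under all 13 alternatives. Bcl2, Mcl1, Bid and Bbc3 kept their sign under these 13, and Bax, Bak1, Bad, Bcl2l2 and Bcl2l11 took both signs. The count of members called, 0 as reported, was 1 (Bcl2l1) without a filter, with robust dispersion, with DESeq2, with the replicate number as a block and at a threshold of 0.1, and 0 to 1 with 1 library left out, 1 without WT replicate 1. Genes called in all, 3 as reported, were 6 with DESeq2 size factors, 96 without a filter, 12 with robust dispersion, 40 with DESeq2, 1 with limma-voom, 25 with the replicate block, 15 at a threshold of 0.1 and 0 to 58 with 1 library left out, 0 without KO replicate 1, 1 without WT replicate 2, 10 without WT replicate 3 and 58 without WT replicate 1. Pathway genes called, 0 as reported, were 2 without a filter and 2 with DESeq2. Lhx1os, at -2.13 and an adjusted p of 0.0589 in edgeR, passed with DESeq2 size factors (-2.14), without a filter (-2.14), with robust dispersion (-2.13), DESeq2 (-2.15) and the block (-2.16). With 1 library left out it ran from -2.25 to -2.03, and it passed without WT replicate 1 (-2.12). The causes were not tested. By the longest transcript 6 of 9 neighbouring pairs kept their order. The difference between anti-apoptotic and pro-apoptotic genes without Bcl2l1 and Bbc3 was -0.13. Deviations of same-numbered libraries from their group means correlated at 0.0579 and 0.0020. With 2 KO libraries these deviations mirror each other, so the values cannot tell whether same-numbered libraries are paired. Depth limits Bbc3 most.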
